A study of Mus musculus with 23 samples.

Results

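The comparison described here set 3 libraries labelled Gpr109a-/- against 3 labelled wild type, all from mouse CD4+ T cells that had been stimulated in the presence of niacin. These 6 of the 23 libraries of the series were chosen by their labels alone. The donor cells were of C57BL/6 background, came from the spleen and had been sorted by flow cytometry as CD45+CD3+CD4+CD8- cells. All 6 cultures received IL-2 at 30 IU/ml, antibodies against CD3 and CD28, and 5 mM niacin for 72 h. Among the items that the labels give, the groups therefore differed in the genotype label only. The other 17 libraries held stimulated cells without niacin and unstimulated cells kept in IL-2 with or without niacin, under both genotype labels. The labels give neither the age of the mice, nor the deleted part of the gene, nor whether the numbered libraries were separate animals. The p-values therefore measure the spread between libraries, which may be technical.

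Gpr109a is the earlier name of Hcar2, a G protein-coupled receptor that binds niacin and the ketone body beta-hydroxybutyrate and lowers cyclic AMP through an inhibitory G protein. It is best known in adipocytes, macrophages and neutrophils. Niacin is also a precursor of NAD, a route that does not need the receptor. Stimulation through CD3 and CD28 takes resting T cells into growth and division: glycolysis, protein folding capacity, iron uptake and DNA synthesis rise, and genes of the naive, quiescent state are switched off. The question the comparison answers is which transcripts differ with the genotype label once cells have been activated with the receptor's ligand present.

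Hcar2 (ENSMUSG00000045502, chromosome 5, 123863570 to 123865499) was read first, since it checks the labels. Its counts were 0, 0 and 0 in wild-type-labelled libraries 1, 2 and 3 and 16, 8 and 18 in knockout-labelled libraries 1, 2 and 3. The reads lay in the libraries labelled knockout, with none in those labelled wild type. The deleted part of the gene is not given. Whether the labels are exchanged or the altered gene still gives a transcript was not tested. Every direction given here is therefore that of the labels and not of a known genotype. The level was 0.584 ± 0.222 CPM (library-scaled counts with TMM factors; SD, n = 3) with the knockout label, at least 13.4-fold higher than the limit of 3 counts over the wild-type-labelled group. Means in the other conditions went the same way, given in the order unstimulated, unstimulated with niacin and stimulated without niacin. They were 0.741 ± 0.236, 1.22 ± 0.201 and 0.244 ± 0.288 CPM with the knockout label (SD, n = 3, 2 and 3). With the wild-type label they were 0.0138, 0 and 0 CPM, and edgeR did not call the gene there (adjusted p = 0.409, 0.196 and 0.314). In stimulated cells with niacin, the edgeR call (adjusted p = 0.0443) was lost without wild-type-labelled library 1 or 2 or any of the knockout-labelled libraries (adjusted p = 0.082 to 0.168). The lactate receptor gene Hcar1 had 11 counts in library 3 of each label and 0 in the other 4. Ffar2, a short-chain fatty acid receptor gene, had 3, 15 and 0 against 4, 19 and 6 counts, and the groups overlapped (edgeR adjusted p = 0.829).

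The 6 libraries held 23331367 to 26177991 counts, within the 13205565 to 30090018 of the series. Wild-type-labelled libraries 1 and 2 stood apart from library 3 of their group: 0.187% and 0.216% of their counts fell on genes of the mitochondrial genome, against 0.605%. The knockout-labelled libraries had 0.562%, 0.514% and 0.374%. A further share was taken over genes of the rRNA biotype and a few genes picked by name, Lars2 among them. These took 2.78%, 2.23% and 1.73% of counts in the wild-type-labelled and 1.41%, 1.40% and 1.38% in the knockout-labelled libraries. Calls are therefore also given without wild-type-labelled libraries 1 and 2 together, which leaves 1 library in that group, assumed to vary as the other groups do.

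The sorted cells carried the markers of CD4 T cells. The 13 identity genes (among them Cd3e, Cd4 and Lck) summed to 8111 to 9046 CPM with the wild-type label and 7159 to 7692 CPM with the knockout label, ranges that do not overlap, with a median log2 fold change of -0.15 and none called. Markers of B cells summed to 5.33 to 7.93 against 4.57 to 8.99 CPM, with Pax5 at 0 in all 6 libraries. The 2 CD8 genes summed to 17.6 to 22.2 against 16.2 to 21.1 CPM. Most of this was Cd8b1, lower without overlap at 16.8, 19.9 and 21.6 against 15.2, 16.1 and 15.5 CPM. Cd8a overlapped, at 0.763, 1.81 and 0.600 against 1.03, 5.03 and 3.13 CPM. NK and gamma delta T cell markers summed to 95.2 to 112 against 98.2 to 114 CPM, with Klra8 at 0. Myeloid and dendritic cell markers summed to 1.32 to 3.05 against 1.31 to 2.89 CPM, and Csf1r, Itgax, S100a8, S100a9 and Clec9a were at 0. Erythroid and platelet markers summed to 0.954 to 2.04 against 0.945 to 1.73 CPM, with Hbb-bs, Pf4 and Ppbp at 0. The summed ranges of these 5 lists of other cells overlapped between the labels, and edgeR called none of their tested genes (9 of the B cell list, 2 of CD8, 11 of NK and gamma delta, 7 of myeloid and 4 of erythroid or platelet markers; median log2 fold changes -0.30, 0.61, 0.52, 1.18 and -0.51).

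Across all genes, 97 were higher and 146 lower with the knockout label. The edgeR quasi-likelihood test with Benjamini-Hochberg adjustment over the 16882 genes kept called these 243 genes at 0.05, which is 1.44% of those tested (0.575% higher and 0.865% lower). The genes called higher had a median log2 fold change of 0.89, and 40 of them were past 2-fold. The genes called lower had a median of -0.92, and 65 were past 2-fold. The median of all genes was -0.02. The 3 libraries of one label lay entirely to one side of the other 3 in all 146 genes called lower and in 96 of the 97 called higher, the exception being Cep290 (named after its values were seen), and also in 26.5% of all genes tested. In bulk samples, fewer cells of a type and less RNA per cell cannot be told apart.

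**Figure D1:**
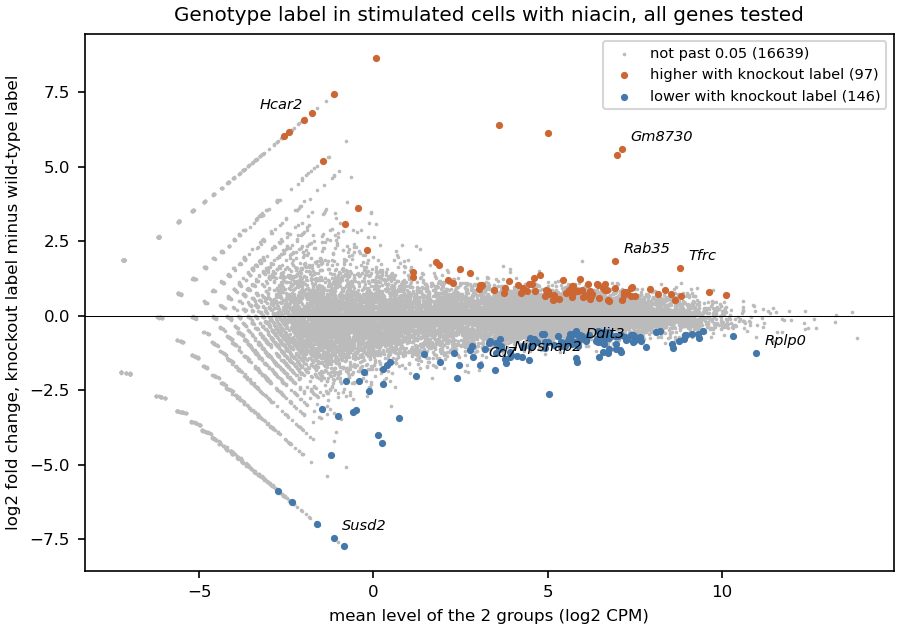
Each point is a gene tested in stimulated cells with niacin, with its mean level over the 2 groups (log2 CPM) on the x axis and its log2 fold change, knockout label minus wild-type label, on the y axis. Genes with no count in the 6 libraries are not drawn. The 97 genes called higher and the 146 called lower are coloured, and Gm8730, a copy of Rplp0, stands at a log2 fold change of 5.60 and Nipsnap2 at -1.46.

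The steadiest differences involved Rplp0 and its copies. Rplp0 encodes the large-subunit stalk protein of the ribosome and lies on chromosome 5 at 115559467 to 115563727 (ENSMUSG00000067274). The genome carries annotated copies of its transcript that have no introns: Gm8730 on chromosome 8 (98.7% identical over the aligned bases), Gm9625 on chromosome 13 (97.5%), Gm14165 on chromosome 2 (97.4%) and Rplp0-ps1 on chromosome 3 (95.6%). Of the 905 stretches of 50 bases in the Rplp0 coding sequence, 509 (56.2%) were found letter for letter in at least 1 of these 4 copies, so reads can be shared among them and the single values are uncertain. One stretch, bases 498 to 587 of the coding sequence, is shown. Among stretches of 90 bases that aligned without gaps in all 4 copies, it has the most positions at which a copy differs from Rplp0. Sequences are from GENCODE vM21 (GRCm38), 5′ to 3′, and capitals mark the bases that differ from Rplp0.
Rplp0: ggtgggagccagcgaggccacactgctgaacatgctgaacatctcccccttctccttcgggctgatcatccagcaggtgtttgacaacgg
Gm8730: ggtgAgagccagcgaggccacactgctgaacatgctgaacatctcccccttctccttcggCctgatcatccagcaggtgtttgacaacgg
Gm9625: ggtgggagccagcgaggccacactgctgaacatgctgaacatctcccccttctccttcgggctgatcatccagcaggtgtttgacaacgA
Gm14165: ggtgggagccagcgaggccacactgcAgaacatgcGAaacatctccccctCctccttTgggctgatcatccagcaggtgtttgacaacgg
Rplp0-ps1: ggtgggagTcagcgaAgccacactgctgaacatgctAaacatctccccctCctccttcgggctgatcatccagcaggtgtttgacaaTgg

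Gm9625 was counted at 6.39, 6.30 and 4.88 CPM in wild-type-labelled libraries 1, 2 and 3 and at 147, 303 and 292 CPM in knockout-labelled libraries 1, 2 and 3. Gm8730 was at 6.15, 6.56 and 4.28 against 165, 338 and 318 CPM. In both, every knockout-labelled library lay far above every wild-type-labelled one, and knockout-labelled library 1 was the lowest of its group. The log2 fold changes were 5.40 ± 0.34 for Gm9625 and 5.60 ± 0.40 for Gm8730 (SE; edgeR adjusted p = 9.25e-09 and 5.38e-08). Gm14165 (36.2 to 81.0 against 0.801 to 1.06 CPM) and Rplp0-ps1 (14.0 to 29.8 against 0.120 to 0.429 CPM) were called as well, at log2 fold changes of 6.14 ± 0.51 and 6.41 ± 0.50 (edgeR adjusted p = 2.7e-07 and 1.48e-07). A shorter match, Gm5948 (88.0% identical, no exact 50-base stretch), had no count with the wild-type label and was at least 47.8-fold higher with the knockout label.

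The parent gene, Rplp0, went the other way and was lower with the knockout label, with 1564, 1005 and 996 CPM against 3127, 3109 and 2275 CPM, with no overlap. Its log2 fold change was -1.26 ± 0.23 (SE; edgeR adjusted p = 0.0105; highest adjusted p without any single library 0.0731). When Rplp0 and its 4 copies were added together, the sums were 3141, 3123 and 2285 CPM with the wild-type label and 1926, 1748 and 1718 CPM with the knockout label, so the groups still did not overlap. The copies made up 0.439% to 0.455% of that sum in the wild-type-labelled libraries and 18.8%, 42.5% and 42.0% in knockout-labelled libraries 1, 2 and 3. The same split by number was present in the other cultures: knockout-labelled library 1 had 18.6% in stimulated cells without niacin and 18.5% in unstimulated cells, and knockout-labelled libraries 2 and 3 of every condition had 39.7% to 43.1%. The calls of the 4 copies held without any single library and without wild-type-labelled libraries 1 and 2 together (adjusted p at most 0.00316). Those of Rplp0 and Gm5948 were lost without these 2 together (adjusted p = 0.345 and 0.188).

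Other genes of chromosome 5 were among the strongest calls. Rab35 encodes a GTPase that returns receptors from endosomes to the cell surface, and lies at 115631908 to 115647736 (ENSMUSG00000029518). It stood at 51.2, 56.7 and 52.7 CPM with the wild-type label and at 133, 226 and 213 CPM with the knockout label. As in the Rplp0 copies, knockout-labelled library 1 was the lowest of its group and still above every wild-type-labelled library. The log2 fold change was 1.83 ± 0.27 (SE; edgeR adjusted p = 0.00185). The Rab35 call held without any single library (adjusted p at most 0.0218) and was lost without wild-type-labelled libraries 1 and 2 together, at the same log2 fold change of 1.83 (adjusted p = 0.187).

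Nipsnap2, whose protein is found at mitochondria (chromosome 5, 129725063 to 129758327, ENSMUSG00000029432), had 20.5, 19.3 and 20.3 CPM with the wild-type label and 6.98, 9.47 and 5.41 CPM with the knockout label. Its wild-type-labelled libraries lay close together and the groups did not overlap. The log2 fold change was -1.46 ± 0.19 (SE; edgeR adjusted p = 0.000452), and it held without wild-type-labelled libraries 1 and 2 (adjusted p = 0.0444). In the list of Hcar2 neighbours on chromosome 5, 2 of 21 tested genes were called higher (Rab35 and Hcar2) and 1 lower (Rplp0). Within 15 Mb of Hcar2 to either side, a window chosen after values were seen, 11 of 428 tested genes were called (5 higher and 6 lower), or 2.57%, beside 18 of 1160 on the whole chromosome (1.55%) and 1.44% of all genes.

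**Figure D2:**
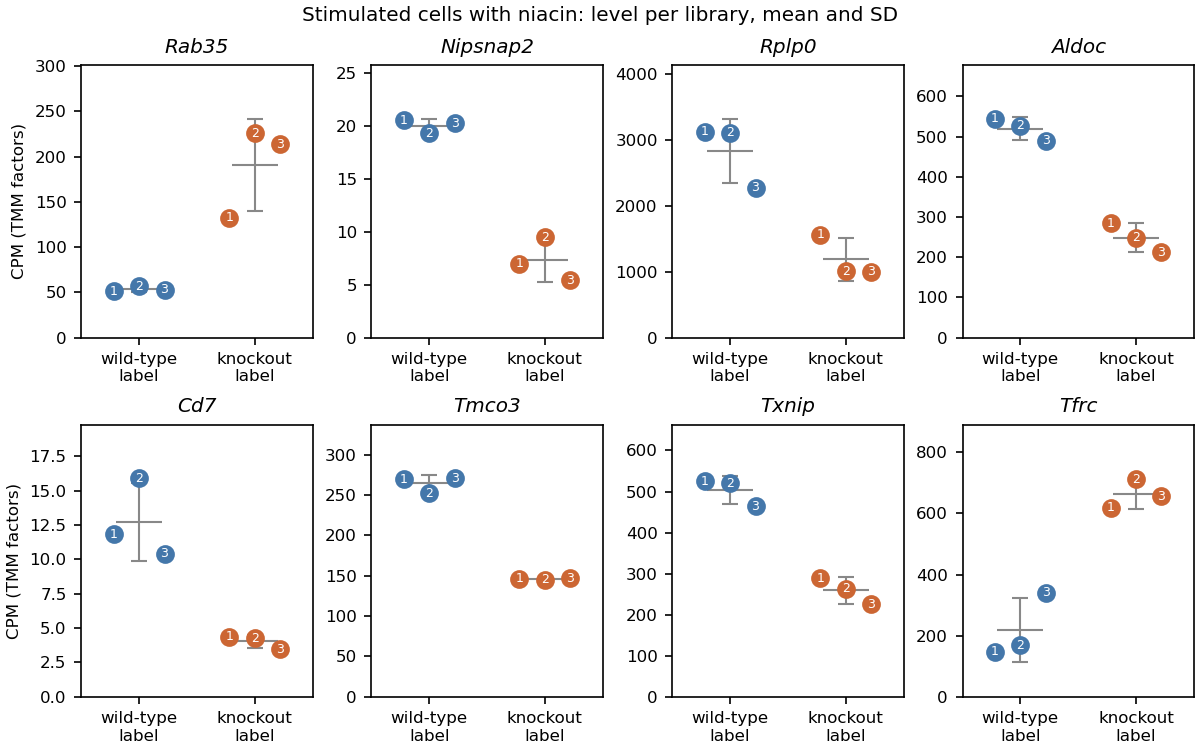
Level of 8 genes in each of the 6 libraries (CPM, linear axis from 0), with the library number in each point and the mean ± SD of each label (n = 3) as grey bars. The groups do not overlap in any of the 8 genes, which were picked from the called genes. Of all genes tested, 26.5% do not overlap. For Tfrc, wild-type-labelled library 3 (340.5 CPM) lies above libraries 1 and 2 (147 and 169 CPM).

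Outside chromosome 5, Cd7 and Tmco3 had among the smallest p-values. Cd7, which encodes a surface glycoprotein of T cells, had 11.8, 15.9 and 10.4 CPM with the wild-type label and 4.35, 4.27 and 3.47 CPM with the knockout label (log2 fold change -1.65 ± 0.23, SE; edgeR adjusted p = 0.00144). Tmco3, a putative membrane transporter gene, was at 269.7, 252 and 271 against 146, 145 and 147 CPM (log2 fold change -0.86 ± 0.12, SE; edgeR adjusted p = 0.00187). The knockout-labelled values of both genes were nearly equal among themselves and all below the wild-type-labelled ones. Both calls held without any single library (adjusted p at most 0.0231) and were lost without wild-type-labelled libraries 1 and 2 together (adjusted p = 0.158 and 0.0769), with log2 fold changes of -1.39 and -0.92.

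Among the other genes with the smallest p-values, Coq8a, which encodes a kinase-like protein needed to make coenzyme Q, was lower (9.92 ± 1.89 against 25.1 ± 3.92 CPM; SD, n = 3; edgeR adjusted p = 0.00267). Gpld1, which encodes a phospholipase that cuts GPI anchors, was lower at 66.6 ± 3.63 against 129 ± 8.12 CPM (edgeR adjusted p = 0.00308), and so was the non-coding transcript 2410006H16Rik at 82.5 ± 18.2 against 191 ± 16.5 CPM (edgeR adjusted p = 0.00401). Fubp1, a single-stranded DNA-binding regulator of Myc, was higher at 181 ± 1.75 against 111 ± 8.96 CPM (edgeR adjusted p = 0.00648). Its call was lost without 1 library (adjusted p up to 0.0512), while the other 3 held without any single library (adjusted p at most 0.0417). Without wild-type-labelled libraries 1 and 2 together all 4 calls were lost (adjusted p = 0.188 for Coq8a, 0.112 for Gpld1, 0.188 for 2410006H16Rik and 0.376 for Fubp1).

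By size of change at 5 CPM or more, the genes called lower included Fam71f2 (log2 fold change -2.10 ± 0.43, SE), Dzip1, a gene of cilium formation (-1.80 ± 0.30), Lgals4, which encodes a galectin (-1.65 ± 0.36), Rasl11b (-1.59 ± 0.35), Adcy9, an adenylyl cyclase gene (-1.56 ± 0.36), and Dbp, a clock-controlled transcription factor gene (-1.56 ± 0.39), with edgeR adjusted p from 0.00513 to 0.0487. Dzip1 had 21.9, 14.8 and 15.4 CPM with the wild-type label against 4.6, 4.90 and 5.46 CPM. The genes called higher by the same rule included Zfp933 (1.80 ± 0.37) and Emp1, a membrane protein gene (1.72 ± 0.32; edgeR adjusted p = 0.0219 and 0.0103). Emp1 had 2.0, 1.32 and 1.76 CPM against 6.00, 5.70 and 5.12 CPM. Of these 8 genes, only Dzip1 kept its call without each single library of the 6 (adjusted p at most 0.0417; 0.0664 to 0.216 at the highest for the other 7). None of the 8 was called without wild-type-labelled libraries 1 and 2 together (adjusted p from 0.187 for Dzip1 to 0.553 for Dbp).

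Of 26 tested genes of the naive, quiescent T cell state, 5 were called lower and 0 higher (0.865% and 0.575% of all genes), and 21 had a negative log2 fold change (median -0.33, all genes -0.02). The called genes were Tsc22d3, a glucocorticoid-induced inhibitor of inflammation; Txnip, an inhibitor of glucose uptake; Pik3ip1, an inhibitor of PI3 kinase; Nsg2; and Ccr7, the lymph node homing receptor (outside the rule for naming genes and named after its values were seen). Summed over the list, the libraries held 7914 to 8235 CPM with the wild-type label and 5982 to 6644 CPM with the knockout label, and library 3 of each label was the lowest of its group.

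Tsc22d3 was at 164, 178 and 169 CPM with the wild-type label and 93.6, 79.4 and 63.5 CPM with the knockout label (log2 fold change -1.11 ± 0.19, SE; edgeR adjusted p = 0.00571). Txnip was at 525, 520.0 and 464 against 289, 264 and 225 CPM (log2 fold change -0.96 ± 0.18, SE; edgeR adjusted p = 0.013). Neither overlapped. Pik3ip1 was at 57.7 ± 6.74 against 135 ± 19.7 CPM (SD, n = 3; edgeR adjusted p = 0.024), Nsg2 at 72.7 ± 16.0 against 125 ± 7.08 CPM (edgeR adjusted p = 0.0118), and Ccr7 at 489 ± 50.04 against 810.5 ± 98.1 CPM (edgeR adjusted p = 0.0286). Every one of these 5 calls was lost without 1 or more single libraries (adjusted p up to 0.154), and 0 genes of the list were called without knockout-labelled library 3 or without wild-type-labelled libraries 1 and 2 together. In the latter fit the list's median log2 fold change was -0.36. Without those libraries Txnip had a log2 fold change of -0.86 (adjusted p = 0.329).

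The promoter of Txnip is shown because it holds both motifs searched in this list. The 250 bases before its start (RefSeq, GRCm38.p6, chr3:96557707-96557956, + strand) carry the forkhead motif GTAAACA and the Txnip E-box CACGAG, the latter at 2 places, in capitals.
Txnip: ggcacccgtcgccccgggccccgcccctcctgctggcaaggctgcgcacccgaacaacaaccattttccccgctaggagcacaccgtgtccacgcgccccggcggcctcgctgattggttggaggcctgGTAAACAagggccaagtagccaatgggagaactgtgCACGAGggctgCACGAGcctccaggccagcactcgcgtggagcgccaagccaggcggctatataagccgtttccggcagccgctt
On either strand, GTAAACA was present in 2 of the 22 promoters of the list with a sequence (Btg1 and Txnip) and in 3.54% of the 27025 genes with one. CACGAG was present in 2 of 22 (Satb1 and Txnip) and in 6.21% of all.

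Of 22 tested genes of the unfolded protein response, which adds folding capacity to the endoplasmic reticulum, 2 were called higher and 0 lower (1.44% of all genes were called in either direction). In this list 20 genes had a positive log2 fold change (median 0.52), and 14 did not overlap between the labels, beside 26.5% of all genes. The summed level was 4647 to 5399 CPM with the wild-type label and 6791 to 7335 CPM with the knockout label. Pdia3, a disulfide isomerase gene, was at 465, 546 and 727 against 1025, 1083 and 921 CPM (log2 fold change 0.80 ± 0.17, SE; edgeR adjusted p = 0.0252), and wild-type-labelled library 3 was the nearest to the knockout-labelled ones. Dnajb11, a co-chaperone gene, was at 101, 129 and 111 against 182, 198 and 209.6 CPM (log2 fold change 0.79 ± 0.18, SE; edgeR adjusted p = 0.0329).

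The chaperone genes Hsp90b1 (539 ± 14.8 against 276 ± 109 CPM; SD, n = 3) and Canx (505 ± 25.3 against 299 ± 77.1 CPM) did not pass (edgeR adjusted p = 0.0522 and 0.058). Without wild-type-labelled libraries 1 and 2 together, 0 genes of the list were called and its median was 0.39. The calls of Pdia3 and Dnajb11 were also lost without 1 or more single libraries (adjusted p up to 0.159 and 0.168). The number called was 5 without wild-type-labelled library 3 and 0 without each of the other 5 single libraries.

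The ER stress response element was found on either strand in 8 of the 19 promoters of the list with a sequence (Calr, Canx, Creld2, Dnajc3, Hsp90b1, Hspa5, Pdia6 and Syvn1) and in 35 of 27025 genes (0.13%). Neither called gene was among them. The promoter of Hspa5, the main chaperone of the endoplasmic reticulum, is shown as an example (RefSeq, GRCm38.p6, chr2:34771840-34772089, + strand), with the outer bases of the element in capitals.
Hspa5: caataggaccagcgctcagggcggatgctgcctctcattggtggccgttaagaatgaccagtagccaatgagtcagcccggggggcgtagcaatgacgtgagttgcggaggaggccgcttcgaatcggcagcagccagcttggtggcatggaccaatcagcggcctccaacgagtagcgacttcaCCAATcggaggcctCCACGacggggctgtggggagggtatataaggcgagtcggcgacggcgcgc
Hspa5 was at 404, 434 and 496 CPM with the wild-type label and 657, 750.0 and 734 CPM with the knockout label. These did not overlap, and the gene did not pass (log2 fold change 0.68 ± 0.20, SE; edgeR adjusted p = 0.0784).

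Of 30 tested DNA replication genes, 0 were called in either direction. In this list 28 had a positive log2 fold change (median 0.43) and 23 did not overlap between the labels, beside 26.5% of all genes. Summed, they stood at 6497 to 7594 CPM with the wild-type label and 8944 to 9730 CPM with the knockout label. The sliding clamp gene Pcna was at 209, 242 and 288 against 411, 431 and 350.3 CPM (edgeR adjusted p = 0.125), and Mcm4, a subunit of the replicative helicase, at 284, 302 and 292 against 422, 409 and 456 CPM (edgeR adjusted p = 0.145). The median without wild-type-labelled libraries 1 and 2 was 0.46, with 0 called. The wider cell cycle list had a median of 0.14, with 26 of 35 genes positive and 0 called.

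Single genes on lists of growth and proteostasis were called higher, and nothing is read from their number. Tfrc, the transferrin receptor gene that brings iron into dividing cells, was the 1 of 30 T cell activation genes called, beside 1.44% of all genes. It stood at 147, 169 and 340.5 CPM with the wild-type label and 618, 713 and 657 CPM with the knockout label (log2 fold change 1.6 ± 0.40, SE; edgeR adjusted p = 0.0466). Wild-type-labelled library 3 lay between the other 2 and the knockout-labelled libraries. Without wild-type-labelled libraries 1 and 2 together the log2 fold change was 0.93 (adjusted p = 0.67), and its call was also lost without single libraries (adjusted p up to 0.237). In stimulated cells without niacin Tfrc was at 418 ± 90.5 and 726 ± 111 CPM for the wild-type and knockout labels (SD, n = 3 each), so the wild-type-labelled group with niacin, at 219 ± 106 CPM, had the lowest mean of these 4 groups. The activation list as a whole had a median of 0.07.

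Of 17 heat shock genes 1 was called, beside 1.44% of all genes: Hsph1, a co-chaperone of Hsp70. It was at 79.6, 91.7 and 119.6 CPM with the knockout label and 37.4, 51.0 and 51.6 CPM with the wild-type label. The log2 fold change was 1.05 ± 0.22 (SE, edgeR adjusted p = 0.0219), and the list median was 0.18. Of 22 NRF2 targets 1 was called, the quinone reductase gene Nqo1. It was at 5.26, 10.4 and 9.47 CPM with the knockout label and 2.05, 4.45 and 1.88 CPM with the wild-type label. The log2 fold change was 1.58 ± 0.38 (SE, edgeR adjusted p = 0.0426), and the list median was 0.09. The groups of both genes did not overlap, though the highest wild-type-labelled and lowest knockout-labelled values of Nqo1 were close. Both calls were lost without single libraries (adjusted p up to 0.149 and 0.218) and without wild-type-labelled libraries 1 and 2 together (0.408 and 0.235).

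Of 23 glycolysis genes 1 was called, beside 1.44% of all genes: Aldoc, an aldolase gene, at 544, 526 and 489.6 CPM with the wild-type label and 284, 249 and 212 CPM with the knockout label (log2 fold change -1.07 ± 0.17, SE; edgeR adjusted p = 0.0045). It held without any single library (adjusted p at most 0.0417) and not without wild-type-labelled libraries 1 and 2 together (log2 fold change -1.0, adjusted p = 0.188). In the glycolysis list 3 of 23 genes had a positive log2 fold change, 15 did not overlap, beside 26.5% of all genes, and the median was -0.25. Of 21 hypoxia response genes 1 was called, Ankrd37, lower at 94.8 ± 7.63 against 153 ± 19.4 CPM (SD, n = 3; edgeR adjusted p = 0.0345; up to 0.139 without single libraries and 0.188 without wild-type-labelled libraries 1 and 2 together), and the median was -0.27. Hif1a itself was at 337 ± 27.3 against 236 ± 47.0 CPM and did not pass (edgeR adjusted p = 0.0792).

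In the list of ATF4 targets and stress response genes 1 of 30 was called, beside 1.44% of all genes. This was Ddit3, called lower, which encodes the transcription factor CHOP. Ddit3 was at 84.0, 82.1 and 66.5 CPM with the wild-type label and 42.2, 37.7 and 34.5 CPM with the knockout label. The log2 fold change was -1.02 ± 0.16 (SE, edgeR adjusted p = 0.00317). Its call held without any single library (adjusted p at most 0.0417) and was lost without wild-type-labelled libraries 1 and 2 together (log2 fold change -0.83, adjusted p = 0.231). The list's median was -0.04, and 0.09 without those libraries. The motif TGATGCAA was present in 6 of 26 promoters of this list with a sequence and in 0.918% of all genes, and Ddit3 was not among the 6.

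Of 30 cytosolic ribosomal protein genes, Rplp0 was the 1 called, beside 1.44% of all genes, and 5 had a positive log2 fold change (median -0.24). Nuclear genes of oxidative phosphorylation had 31 of 36 positive values (median 0.16) with 0 called. The 8 tested genes of the mitochondrial genome had a median of 1.10 and 0 calls. Their median was 0.26 without wild-type-labelled libraries 1 and 2, and 6 were called without library 3. For example, mt-Nd1 was at 125, 146 and 320.3 CPM in wild-type-labelled libraries 1, 2 and 3 against 467, 427 and 348 CPM.

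**Figure D3:**
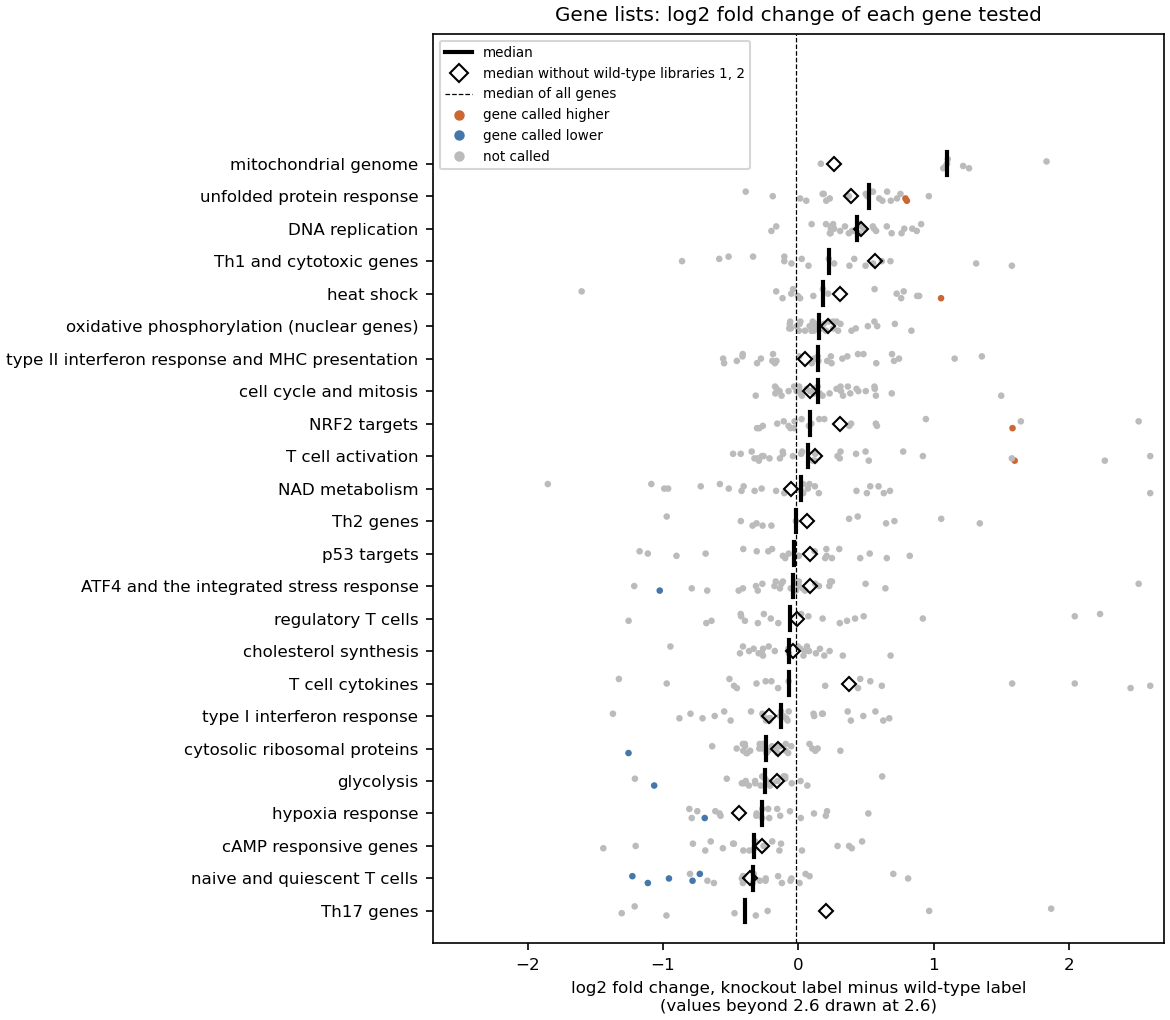
Log2 fold change by genotype label of every tested gene in 24 gene lists (grey, or coloured where called), with the list median as a bar and the median without wild-type-labelled libraries 1 and 2 as a diamond. The unfolded protein response (0.52) and DNA replication (0.43) medians lie above the all-gene median of -0.02 and the naive and quiescent median (-0.33) below it, while the mitochondrial genome median moves from 1.10 to 0.26.

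The remaining lists had no called gene apart from Hcar2. Their median log2 fold changes were 0.22 for 19 Th1 and cytotoxic genes, -0.02 for 13 Th2 genes, -0.39 for 8 Th17 genes, -0.06 for 20 regulatory T cell genes and -0.07 for 19 T cell cytokine genes. Medians were -0.13 for 30 type I interferon genes, 0.14 for 29 genes of the type II interferon response and MHC presentation, -0.07 for 25 cholesterol synthesis genes, -0.03 for 22 p53 targets and 0.02 for 27 genes of NAD metabolism, the pathway that uses niacin. Without wild-type-labelled libraries 1 and 2, the medians of 5 of these lists changed sign: Th2 (0.06), Th17 (0.21), T cell cytokines (0.37), p53 targets (0.09) and NAD metabolism (-0.05). The 21 cAMP responsive genes, downstream of the signal that Hcar2 lowers, had a median of -0.32 with 5 positive. In the list of receptors and carriers for hydroxycarboxylic acids and short-chain fatty acids, Hcar2 was the 1 of 6 tested genes called (median 0.53). Of all genes 1.44% were called.

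How much rested on wild-type-labelled libraries 1 and 2 was read in 3 ways. First, the mean of the knockout-labelled libraries was set against each wild-type-labelled library in turn. Over the 97 genes called higher the median log2 difference was 1.12 from library 1, 0.95 from library 2 and 0.66 from library 3, and library 3 was the nearest to the knockout-labelled mean in 63 of the 97. Over the 146 genes called lower the medians were -1.06, -0.93 and -0.84, and library 3 was the nearest in 77. Nearness to library 3 was not particular to the called genes. Over all genes tested, the median absolute log2 difference from knockout-labelled libraries 1, 2 and 3 was 0.31, 0.35 and 0.40 for library 3. It was 0.38, 0.41 and 0.41 for library 2 and 0.47, 0.49 and 0.49 for library 1.

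Second, libraries were left out. Without wild-type-labelled library 1, 42 genes were called, and 53 without library 2. Without library 3 there were 1024, of which 720 (70.3%) were higher, against 39.9% higher with all libraries. Leaving out knockout-labelled library 1, 2 or 3 left 110, 49 and 39 calls. Every left-out fit given here kept unstimulated knockout-labelled library 3, and leaving out that library alone gave 1767 calls. Without wild-type-labelled libraries 1 and 2 together 7 genes were called, all among the 243. They included the 4 Rplp0 copies, Nipsnap2 and C130083A15Rik (the last named after its values were seen). The median log2 fold change in that fit was 0.63 for the genes called higher and -0.86 for those called lower.

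Last, calls were required in every one of the 6 fits that left out a single library of the comparison. This kept 25 of the 243 genes, 7 higher and 18 lower. Of the named genes these included the 4 Rplp0 copies, Gm5948, Gm13123 and Rab35, all higher, and Nipsnap2, Cd7, Tmco3, Coq8a, Gpld1, Ddit3, 2410006H16Rik, Aldoc and Dzip1, all lower. Every one of the 7 higher genes was Rab35 or a pseudogene.

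**Figure D4:**
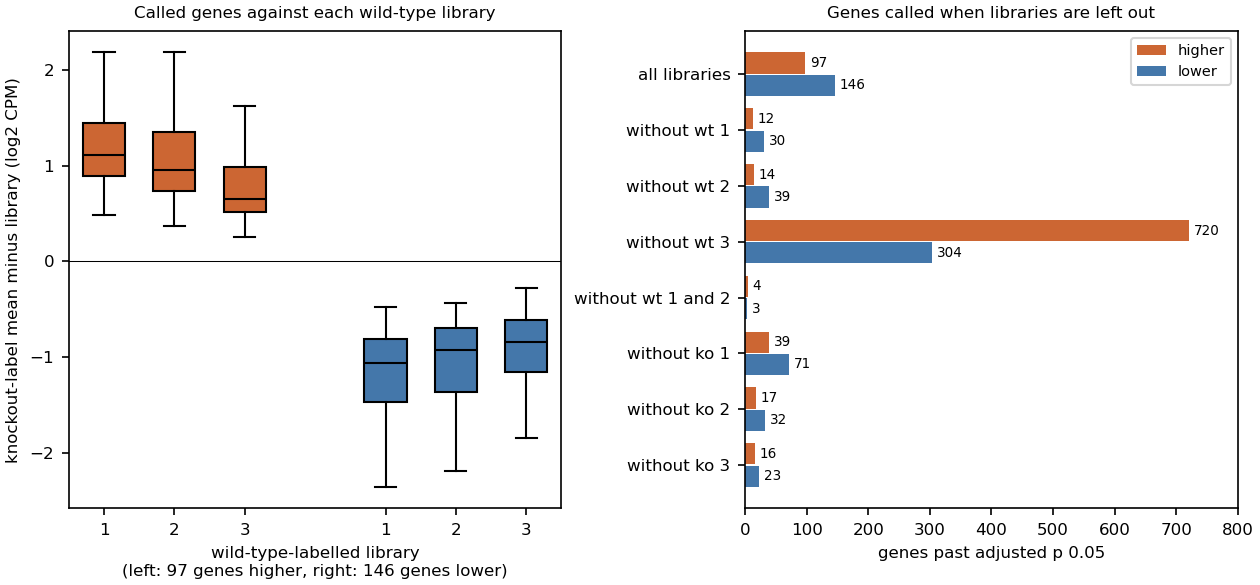
Left, log2 difference between the knockout-labelled mean and each wild-type-labelled library over the 97 genes called higher and the 146 called lower (box, quartiles; line, median; whiskers, up to 1.5 times the interquartile range; points beyond not drawn). Right, number of genes past an edgeR adjusted p of 0.05 with all libraries and with libraries left out, from 7 without wild-type-labelled (wt) libraries 1 and 2 to 1024 (720 higher and 304 lower) without library 3, with the knockout-labelled libraries marked ko.

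The same contrast in stimulated cells without niacin uses other libraries. The labels do not say whether libraries with the same number come from the same mouse, and the share of the Rplp0 copies followed the number in both conditions, so the 2 contrasts may not be independent. Without niacin 19 genes were called by edgeR (0.113% of those tested), and 14 of them were also called with niacin, which is 73.7% of those 19 and 5.76% of the 243. Besides the Rplp0 copies Gm8730, Gm9625, Gm14165, Rplp0-ps1 and Gm5948, these included Rab35, Nipsnap2, Cd7, Tmco3, Gm13123, Ramp1 and Pdlim4. The sign was the same without niacin in 233 of the 243 genes (90 of 97 higher and 143 of 146 lower), with medians of 0.30 and -0.55 against 0.89 and -0.92 with niacin. Since the 243 genes were chosen on the contrast with niacin, their smaller medians elsewhere are a description and not a test. In unstimulated cells 7 genes were called without niacin (0.0415%) and 6 with it (0.0355%), and 6 of each were among the 243. The sign was the same in 108 of the 243 genes without niacin and in 85 with it. The genes called in all 4 conditions included Gm8730, Gm9625, Gm14165, Rplp0-ps1 and Rab35.

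**Figure D5:**
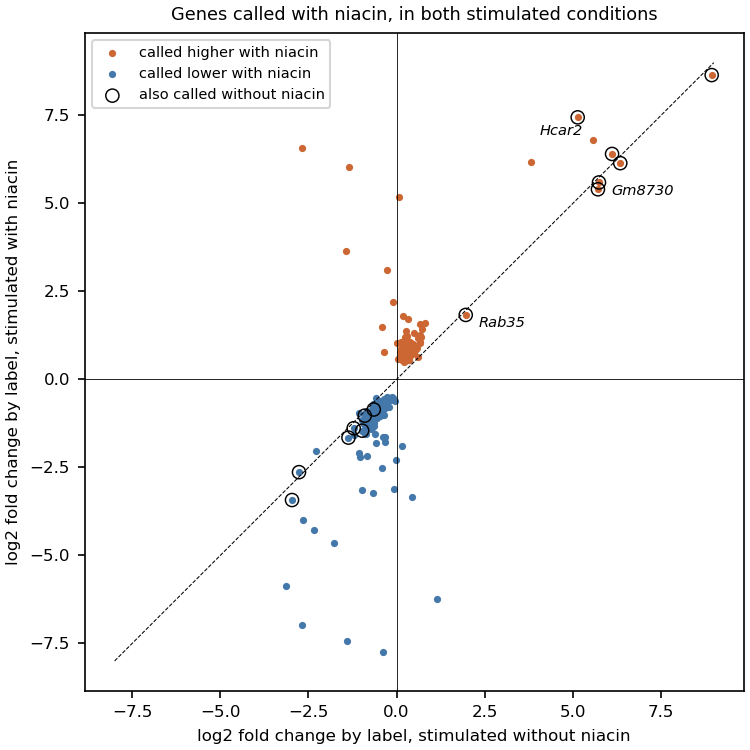
Log2 fold change by genotype label of the 243 genes called in stimulated cells with niacin (y axis) against that in stimulated cells without niacin (x axis), with the line of equal values dashed. The 14 genes also called without niacin are ringed, and most of the others lie nearer to 0 on the x axis.

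Whether the genotype difference itself changed with niacin was tested as a difference of differences. The fit took the libraries as independent and modelled no link between same-numbered libraries of a label. No gene passed in stimulated cells with against without niacin (edgeR, lowest adjusted p = 0.0929, for Gm26789). By unadjusted p under 0.05 there were 874 genes (5.18% of those tested), among them 73 of the 243, a count from which nothing is read because the test shares its libraries with the calls. DESeq2 called 5 genes (Alpk1, Gm43721, Gm26789, Cep290 and Btnl2). For the named genes the test gave, for example, 1.40 ± 0.44 on the log2 scale for Emp1 (SE; unadjusted p = 0.00428, edgeR adjusted p = 0.894) and -0.13 ± 0.36 for Rab35. Emp1 was at 1.69 ± 0.346 and 5.60 ± 0.447 CPM for the wild-type and knockout labels with niacin and at 2.99 ± 0.915 and 3.74 ± 1.49 CPM without it (SD, n = 3 each).

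No gene passed when the genotype difference with niacin was compared between stimulated and unstimulated cells (edgeR, lowest adjusted p = 0.181, for Cd7). By unadjusted p under 0.05 there were 1850 genes (11% of those tested), among them 230 of the 243, which share libraries with this test in the same way, and DESeq2 called 68. Cd7, picked for its lowest p-value, did not pass, and its values are a description only. In unstimulated cells with niacin it stood at 35.4 ± 5.56 and 37.9 ± 5.23 CPM for the wild-type and knockout labels (SD, n = 3 and 2). In stimulated cells with niacin it stood at 12.7 ± 2.85 and 4.03 ± 0.490 CPM (n = 3 each). Its difference of differences was -1.75 ± 0.33 on the log2 scale (SE).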

How the data were processed

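The deposited table held counts of reads per gene for 23 libraries. Per the labels' protocols, total RNA was amplified by SMART-seq V4 and read in paired-end mode. Per the submitters' processing notes, the authors used Trimmomatic 0.38, STAR 2.7.0e and featureCounts 1.6.3 with GRCm38.p5 and mm10. The strand setting and annotation release: not given in the sources used here. Symbols were found for 53274 of 53379 gene IDs in GENCODE vM21, and coordinates are those of the table.

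The test was the quasi-likelihood F test of edgeR 4.0.16 with 1 mean for each of the 8 groups and TMM factors over all 23 libraries. Genes were filtered by filterByExpr (minimum count 10), and p-values were adjusted by Benjamini-Hochberg, with a threshold of 0.05. The fit kept 16882 genes and had 15 residual degrees of freedom, with a common biological coefficient of variation of 27.4%. Levels are CPM with TMM factors. The SE given with a log2 fold change is its absolute value divided by the square root of the F statistic, not a separate estimate. The test scripts were tested on simulated data. Limits set by a count of 0 (3 counts over a group) cover counting error only.

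Alternatives were DESeq2 1.42.0, RLE factors, no filter, the replicate number as a block, limma 3.58.1 voom with sample quality weights, a fit of the compared groups alone, each library left out, wild-type-labelled libraries 1 and 2 of stimulated cells with niacin left out together and, chosen after seeing the data, library 3 of the unstimulated knockout-labelled cells left out. R was version 4.3.3.

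The comparison, its libraries, the 32 gene lists (6 of them cell type markers) and the rule for naming genes were chosen with earlier results of these data known. Named genes are Hcar2, Hcar1 and Ffar2; per direction, up to 8 called genes with the largest change (at 5 CPM or more, groups not overlapping), up to 8 with the smallest p-value and up to 8 that stay called in every fit without libraries of the comparison; up to 4 per list by p-value; and up to 5 per difference of differences. Those passing a list's rule without a call are named where a result turns on them. Some genes that the rule names are not reported here. Motifs were searched on both strands of the 250 bases before each start.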

Additional observations from a re-analysis of the deposited data

How the results depend on the processing

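The number of genes called depended strongly on the tool and the libraries. The sign of the 243 called genes is not read as a mark of stability, because their groups did not overlap, except for Cep290, so leaving libraries out could not turn it. Against 243 calls, DESeq2 called 1122, voom 3403 (55.1% higher, against 39.9%), no filter on low counts 1138 and only the compared groups 434. Leaving out single libraries gave 39 to 1767, the highest without unstimulated knockout-labelled library 3, a library outside the comparison that enters through the shared spread (51.6% higher). That library had 13205565 counts, the lowest total of the series, and 4.54% of them on genes of the rRNA biotype or picked by name. The same share was at most 2.78% in the libraries compared. The other left-out fits kept that library, so their lost calls were read with its spread included. The share higher was 28.6% and 26.4% without wild-type-labelled library 1 or 2, and 57.1% of the 7 calls without both. RLE factors (268) and the replicate block (198) stayed within 1.5 times. Of the 243, DESeq2 also called 243, voom 242, no filter 211 and only the compared groups 159.

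Within stimulated cells with niacin, deviations of same-numbered libraries of the 2 labels correlated at -0.03, -0.03 and -0.07. This check does not cover libraries of 1 label that carry the same number in different conditions, where the share of the Rplp0 copies followed the number. With the replicate block the calls of Hcar2 (adjusted p = 0.0678), Tfrc (0.0681), Dbp (0.0668) and Adcy9 (0.0521) were lost, the other 33 of the 36 named calls besides Hcar2 stayed, and 17 list genes were called against 16.

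For the difference with against without niacin, 0 calls became 5 with DESeq2, 80 with no filter, 185 with voom and 0 to 1 without single libraries. For stimulated against unstimulated cells with niacin, 0 became 68 with DESeq2, 261 with no filter, 2105 with voom and 0 to 121 without single libraries, the highest without wild-type-labelled library 3. Called list genes went from 16 to 66 with DESeq2, 78 with no filter, 177 with voom, 50 with only the compared groups, 3 to 98 without single libraries and 0 without wild-type-labelled libraries 1 and 2 together. Hcar2 had an adjusted p of 0.0181 to 0.168 without single libraries and 0.432 without those 2 together. For the 36 named called genes besides Hcar2, 399 of 504 values stayed past the threshold and 105 did not, 30 of these without wild-type-labelled libraries 1 and 2. The cause of these changes was not tested, beyond fewer libraries or other genes entering a fit. With 3 libraries per group and 1 to 3 in a left-out fit, a lost call does not show that a difference is absent.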
